A study of Mus musculus with 53 samples.

Results

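Retnla and Chi3l3 were followed as a pair of secreted products of alternatively polarized macrophages. The members were the 2 genes of those names among 23847 loci listed for every sample, and both passed the filter of at least 1 FPKM in at least 1 sample that left 11146 loci for testing. FPKM is the number of sequenced fragments scaled to the length of the transcript and to the mapped fragments of the library. Chi3l3 is the older symbol of Chil3.

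The cells were bone marrow-derived macrophages (BMDMs), grown for 6 days with L929 supernatant, a source of the growth factor MCSF, from WT or full body Stat6-/- mice on the C57BL/6 background aged 8 to 12 weeks. They received IL-4 at 20 ng/ml for 1, 3, 6 or 24 h, or were left untreated for the same time, and untreated cells were also collected at 0 h. The 18 groups held 53 samples, with 4 WT samples in each group except the 3 of WT with IL-4 for 24 h, and 2 Stat6-/- samples in each group. All groups of both genotypes were macrophages differentiated in the same way. The WT samples of a group were described as individual animals. Whether the Stat6-/- samples were individual animals is not stated in the sources used here, and the labels tie no replicate number to a mouse. The limma p-values rest on a spread shared by all 18 groups of both genotypes. They therefore do not measure the spread between WT mice alone.

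IL-4 binds a receptor whose kinases phosphorylate STAT6, and the STAT6 dimer then enters the nucleus and binds DNA. In macrophages this turns on a set of genes of type 2 immunity. Retnla encodes RELM alpha, also called FIZZ1, a small cysteine-rich protein of the resistin-like family that is released in helminth infection, allergy and tissue repair. Chi3l3 encodes Ym1, a chitinase-like lectin of the glycosyl hydrolase family that has lost chitinase activity and can form crystals in inflamed lung. Ym1 is also made by neutrophils and their precursors.

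Retnla lies on the plus strand of mouse chromosome 16 (mm10) between 48842552 and 48844461, and its longest annotated transcript has 4 exons and 599 bases. Chi3l3 lies on the minus strand of chromosome 3 between 106147554 and 106167564, with 11 exons and 1539 bases. Its neighbour Chi3l4, or Ym2, lies between 106201491 and 106219479 on the same strand. The aligned transcripts of Chi3l3 and Chi3l4 were 94.23% identical. Of the 50-base words in the Chi3l3 transcript, 29.4% also occurred in transcripts of 2 other genes. Words shared with Chi3l4 made up 18.46% of all words in the Chi3l3 transcript. No 50-base word of Retnla was shared. Fragments of Chi3l3 and Chi3l4 that fall in shared sequence can therefore be assigned to either gene, which makes the FPKM of both uncertain. The methods give paired reads longer than these words. The share of shared words is thus not the share of uncertain fragments, which was not measured.

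The stretches before the start sites are shown because both members rose under IL-4 from different chromosomes. They were read 5′ to 3′ on the strand of the gene from the RefSeq promoter table (GRCm38.p6), where all 3 genes matched, and end before the earlier of the RefSeq and GENCODE starts. Capitals mark matches to the motifs searched. Retnla is chr16:48842359-48842550 on the plus strand, Chi3l3 is chr3:106167565-106167814 on the minus strand and Chi3l4 is chr3:106219508-106219729 on the minus strand.
Retnla: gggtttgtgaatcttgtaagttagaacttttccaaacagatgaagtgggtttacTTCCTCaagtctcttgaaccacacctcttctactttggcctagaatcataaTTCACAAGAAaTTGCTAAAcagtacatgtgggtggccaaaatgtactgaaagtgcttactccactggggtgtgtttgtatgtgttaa
Chi3l3: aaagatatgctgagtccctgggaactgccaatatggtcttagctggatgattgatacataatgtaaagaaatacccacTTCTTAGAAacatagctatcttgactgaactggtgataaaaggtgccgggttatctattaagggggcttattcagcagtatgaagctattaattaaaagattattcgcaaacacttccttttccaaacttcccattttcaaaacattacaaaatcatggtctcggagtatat
Chi3l4: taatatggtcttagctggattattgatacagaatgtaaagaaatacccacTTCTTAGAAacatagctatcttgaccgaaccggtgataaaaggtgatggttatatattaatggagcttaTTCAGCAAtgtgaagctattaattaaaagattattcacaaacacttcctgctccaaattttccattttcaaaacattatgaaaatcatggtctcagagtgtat

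In Retnla the capitals are, in order, TTCCTC, TTCACAAGAA and TTGCTAAA. TTCACAAGAA has the form preferred by STAT6, TTC and GAA with 4 bases between, and began 145 bases before the RefSeq start. TTGCTAAA matched the C/EBP letters searched, TTGC and AA with 2 bases between, and began 134 bases before the start, separated from the STAT6 form by 1 base. TTCCTC is the reverse strand of GAGGAA, the core bound by PU.1. Chi3l3 held TTCTTAGAA, the STAT form with 3 bases between TTC and GAA, which began 172 bases before its start. The same letters stood in Chi3l4, 200 bases before its RefSeq start, together with a C/EBP match on the reverse strand. TATAAA matched once in the 300-base window of each of the 3 genes, outside the stretches shown or across their end. Both strands were searched, and no 2 of the matches overlapped. Among 32851 promoter windows of 300 bases, 6.953% held the form with 4 bases, 8.298% that with 3 bases, 10.8% the C/EBP letters, 28.28% GAGGAA and 13.62% TATAAA. A match describes the letters and does not show that a factor bound. The aligned stretches of Chi3l3 and Chi3l4 were 80.48% identical, and those of Chi3l3 and Retnla 46.64%.

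Depth and identity of the samples bear on every value. The deposited values carry no counts, but low values gave the relative depth of the samples, which ranged from 0.706 to 1.554 of the median. Stat6, the targeted gene, read 58.7 to 90.6 FPKM in the 35 WT samples and 14.3 to 24.0 FPKM in the 18 Stat6-/- samples, with no overlap. Which part of the gene gave the remaining fragments was not analysed here. Macrophage genes were abundant, with Csf1r at a mean of 871.1 FPKM in WT controls and 888.2 in Stat6-/- controls, and all 9 tested of the 10 listed were detected in both genotypes. None was called between the genotypes, but Emr1, which encodes F4/80 (790 FPKM in WT and 1037 FPKM in Stat6-/- controls, adjusted p = 1.2e-04), and the integrin gene Itgam (237.0 and 327 FPKM, adjusted p = 0.0066) were higher in Stat6-/- cells. At 24 h of IL-4 in WT, 4 of the 9 (Emr1, Mertk, Fcgr1 and Cd14) were called lower and none higher. The share of all tested loci called at that time, in either direction, was 8.5%. The median difference of the 9 was -1.20, beside -0.07 over all tested loci. Lyz2, a lysozyme that macrophages use in quantity, was nevertheless listed at 0 in 7 WT samples, so a 0 in these files can be a failed estimate. A Retnla value of 0 is therefore given as listed at 0.

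Without IL-4 the members stood at different levels. Retnla was low or listed at 0 in both genotypes, while Chi3l3 was present in every sample. Over the 20 WT controls, Retnla was listed at 0 in 14 and ranged up to 2.16 FPKM. Over the 10 Stat6-/- controls it was listed at 0 in 5 and ranged up to 1.22 FPKM. Scaled to the median depth, the 8 lowest values above 0 were 1, 2 or 3 times 0.0633 FPKM to within 8%, so they stood for a few fragments each. The other controls above 0 were higher. WT replicate 1 at 6 h stood at 40.2 such steps, and Stat6-/- replicate 1 at 18.5 at 6 h and 13.6 at 24 h. Chi3l3 was 15.8 to 29.4 FPKM in the WT controls and 31.2 to 46.4 FPKM in the Stat6-/- controls.

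**Figure D1:**
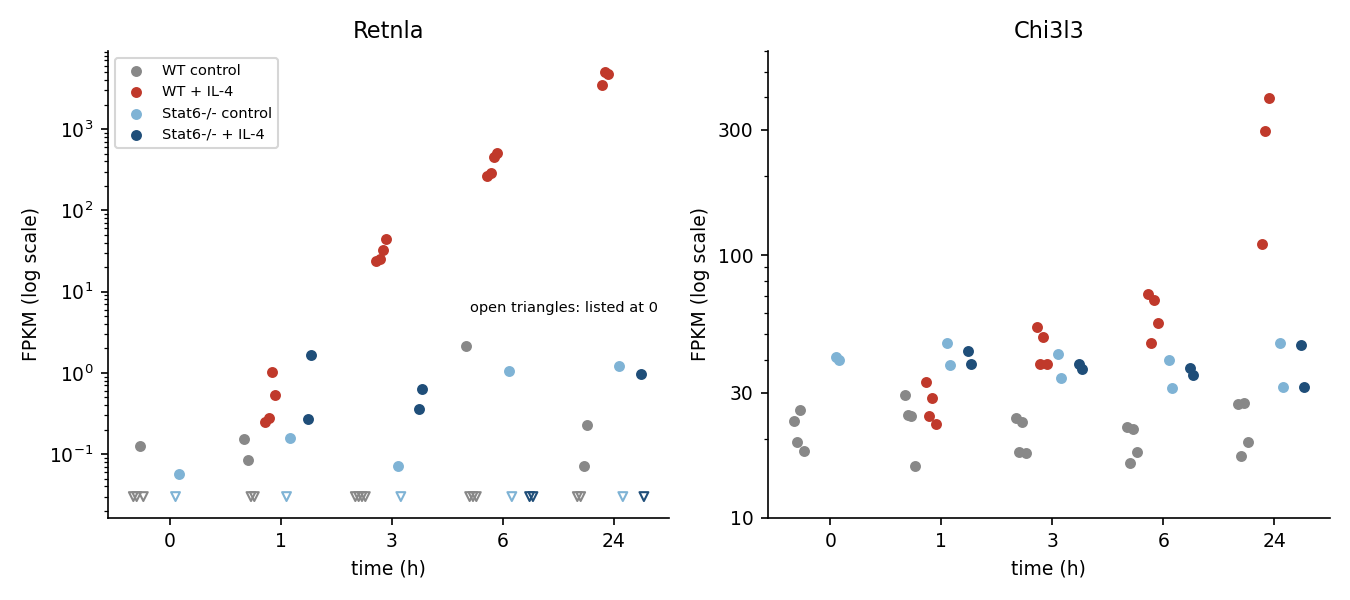
FPKM of Retnla (left) and Chi3l3 (right) in every sample by time in hours, on log axes, with colours for genotype and treatment and open triangles for samples listed at 0. Retnla in WT with IL-4 climbed from 0.248 to 1.03 FPKM at 1 h to 3441 to 5041 FPKM at 24 h, while the Stat6-/- samples with IL-4 stayed at or under 1.68 FPKM.

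At 1 h of IL-4 neither member was called. Retnla in WT read 0.248, 0.281, 1.03 and 0.533 FPKM with IL-4 and 0.153, 0.0837, 0 and 0 FPKM in the time-matched controls. All 4 IL-4 samples lay above all 4 controls, as at 8.27% of the tested loci, but every value was low. The difference was 0.50 ± 0.29 (SE) in log2(FPKM + 1), with an adjusted p of 0.347 (limma). Chi3l3 read 33.0, 24.5, 28.6 and 22.8 FPKM with IL-4 and 29.4, 24.5, 24.4 and 15.8 FPKM without. The Chi3l3 groups overlapped, and the difference was 0.22 ± 0.23 with an adjusted p of 0.683. A call required an adjusted p under 0.05 and a difference of at least 1, which is 2-fold on this scale, and 1.49% of loci met it at 1 h.

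At 3 h both members had risen in WT. Retnla read 24.0, 25.4, 32.7 and 44.3 FPKM with IL-4 and was listed at 0 in all 4 controls. Its difference was 4.99 ± 0.29, the third highest of the tested loci, with an adjusted p of 1.9e-17. No fold is given, since the control group was at 0, and the log2 difference depends on the added 1 FPKM. Chi3l3 read 53.4, 38.7, 48.8 and 38.5 FPKM with IL-4 against 24.0, 17.7, 23.1 and 17.6 FPKM. The Chi3l3 groups did not overlap, which held at 20.8% of loci, and the ratio of the means was 2.18. The difference of 1.08 ± 0.23 passed the test with an adjusted p of 2.9e-04, close to the 2-fold limit. At this time 3.88% of loci were called. Without the first IL-4 replicate the Chi3l3 difference was 0.997, just under that limit.

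At 6 h the response of Retnla was the highest of all tested loci. The IL-4 samples read 264.7, 289.6, 449.3 and 512.3 FPKM, and the controls 2.16, 0, 0 and 0 FPKM. The difference was 8.10 ± 0.29 with an adjusted p of 3.9e-24. Chi3l3 read 71.4, 46.4, 67.7 and 55.4 FPKM with IL-4 and 22.2, 16.2, 21.7 and 17.9 FPKM without, a ratio of means of 3.09. Its difference was 1.57 ± 0.23 with an adjusted p of 5.6e-07. The IL-4 samples lay above the controls for both members, as at 23.8% of loci, and 5.54% of loci were called.

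At 24 h Retnla had become a main transcript of the WT cells. The 3 IL-4 samples read 3441, 5041 and 4762 FPKM, and the 4 controls 0, 0, 0.0723 and 0.227 FPKM. These values placed Retnla at ranks 10, 6 and 8 of all listed loci and at 0.803, 1.22 and 1.11% of the summed FPKM. With a mean of 4415 ± 854 FPKM (SD, n = 3) it stood between Lyz2 (4799 ± 722) and the cathepsin gene Ctsd (3710 ± 325) among tested loci, and both neighbours differed from it by less than its own SD. The difference was 11.99 ± 0.31 with an adjusted p of 2.3e-28, again the highest of the tested loci.

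Chi3l3 at 24 h read 110.5, 295.8 and 395.9 FPKM with IL-4 and 27.0, 17.2, 27.3 and 19.4 FPKM without. Its mean of 267.4 ± 144.8 FPKM (SD, n = 3) lay 11.8 times above the control mean, and the ranks of the 3 samples were 584, 192 and 127. The lowest of the IL-4 samples was the second replicate, which also held the lowest Retnla value. The difference was 3.34 ± 0.25 with an adjusted p of 6.4e-14. The groups did not overlap for either member, as at 27.4% of loci, and 8.5% of loci were called.

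**Figure D2:**
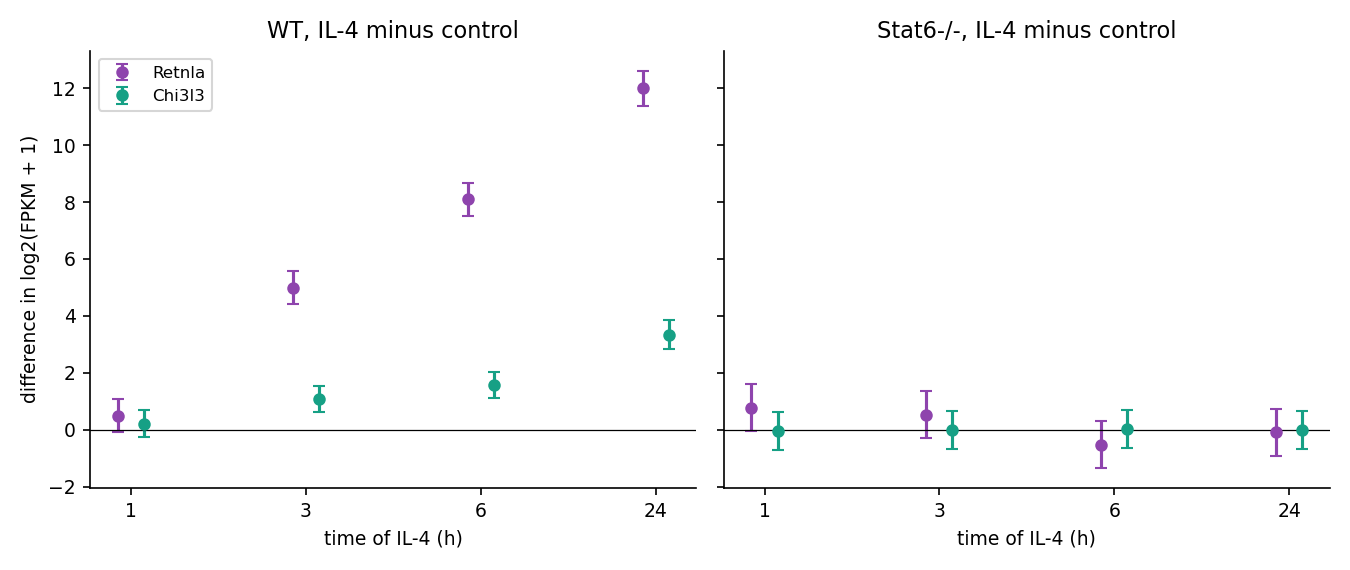
Difference between IL-4 and time-matched control in log2(FPKM + 1) by hours of IL-4 in WT (left) and Stat6-/- cells (right), with points for the fitted difference and bars for its 95% interval. In WT, Retnla reached 11.99 and Chi3l3 3.34 at 24 h, and every Stat6-/- interval crossed 0.

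The shape of the rise was compared between successive times. For Retnla each step was called. The response grew by 4.49 ± 0.40 from 1 to 3 h (adjusted p = 8.0e-11), by 3.11 ± 0.40 from 3 to 6 h (adjusted p = 2.1e-06) and by 3.89 ± 0.42 from 6 to 24 h (adjusted p = 2.4e-09). The second of these steps was 2.44 with an adjusted p of 0.336 when 0.1 FPKM was added in place of 1. For Chi3l3 only the last step was called, at 1.77 ± 0.34 with an adjusted p of 1.0e-04. Its step from 1 to 3 h was 0.86 ± 0.33 (adjusted p = 0.087) and that from 3 to 6 h was 0.49 ± 0.33 (adjusted p = 0.664). The background of such calls was 1.61% of loci for the first step, 0.449% for the second and 6.06% for the last.

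Expressed per hour, the mean Retnla level in the IL-4 groups rose by 2.96 log2 units per hour from 1 to 3 h, by 1.19 from 3 to 6 h and by 0.197 from 6 to 24 h. For Chi3l3 the same slopes were 0.360, 0.142 and 0.119. These slopes are descriptions of means with no test. The first Retnla slope started from a low mean of 0.523 FPKM, and the Chi3l3 slopes include its basal level. Most of the final amount of both transcripts appeared after 6 h. The Retnla mean stood at 0.0118% of its 24 h value after 1 h, at 0.716% after 3 h and at 8.59% after 6 h. The Chi3l3 mean stood at 10.2% after 1 h, at 16.8% after 3 h and at 22.5% after 6 h, and these percentages include its basal level. Leaving out the second replicate lowered the last value to 18.8%, and leaving out the fourth raised it to 30.5%.

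**Figure D3:**
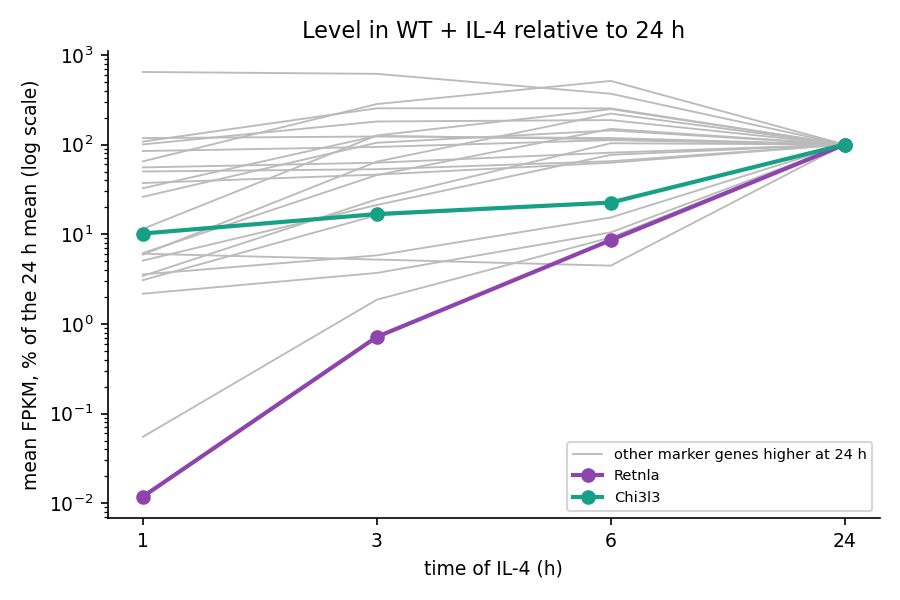
Mean FPKM in WT with IL-4 as a percentage of the 24 h mean, on a log axis, by hours of IL-4, for Retnla, Chi3l3 and the 21 other marker genes called higher at 24 h (grey lines). At 6 h Retnla stood at 8.59% and Chi3l3 at 22.5% of the final mean, and 1 of the other genes lay below Retnla. The percentages include the basal level of each gene.

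Other genes used as markers of the IL-4 response give the scale. Of the 28 listed, 26 were tested, and the 4 successive times had 12, 17, 20 and 21 called, all of them higher. These counts stand beside 1.49, 3.88, 5.54 and 8.5% of all tested loci called in either direction. The first called time was 1 h for 12 genes, 3 h for 5, 6 h for 3 and 24 h for 4, and 2 were not called higher at any time. The first called time of Retnla and Chi3l3, 3 h, was also that of 5 of these genes. They were Mrc1, the mannose receptor, Clec10a, a lectin, the chemokine gene Ccl24, Cdh1, which encodes E-cadherin, and Flt1, a VEGF receptor. A first call depends on the 2-fold limit and need not be the onset. Cdh1 passed the p-value limit at 1 h already, with a difference of 0.84 (adjusted p = 7.5e-06, limma). Arg1, the arginase of the same response, was called from 1 h with a difference of 1.65 and was at 103.3% of its 24 h mean by 6 h. Among the 21 marker genes called higher at 24 h, Mmp12 at 4.46% had a lower share of its 24 h mean at 6 h than Retnla, and Ear11, a ribonuclease of the eosinophil-associated family, stood at 9.19%. For Chi3l3, 5 of the 21 had a lower share. These shares include the basal level, which differed between the genes, so their order is not one of kinetics alone. The median difference of the 26 tested markers was 0.80, 2.13, 2.55 and 3.01 at 1, 3, 6 and 24 h, beside -0.02, 0.01, 0.00 and -0.07 over all tested loci.

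FPKM is scaled to transcript length, so the levels of both members can be compared within a sample. At 1 h of IL-4 in WT the ratio of Retnla to Chi3l3 was 0.00750 to 0.0360. At 3 h it was 0.450, 0.656, 0.670 and 1.15, and at 6 h 3.71, 6.24, 6.63 and 9.25. At 24 h it was 31.1, 17.0 and 12.0. The order of the members thus turned between 3 and 6 h, with 1 of the 4 samples past a ratio of 1 at 3 h and all 4 at 6 h.

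Whether IL-4 moved the members by unequal amounts was tested on the per-sample difference between log2(Retnla FPKM + 1) and log2(Chi3l3 FPKM + 1). Relative to controls this difference was 0.28 higher at 1 h (exact permutation test, two-sided, p = 0.314), 3.90 higher at 3 h (exact p = 0.0286) and 6.53 higher at 6 h (exact p = 0.0286). At 24 h it was 8.65 higher (exact p = 0.0571). The last 3 p-values were the smallest that these sample numbers allow. After adjustment over the 4 times the exact p-values were 0.314, 0.0571, 0.0571 and 0.0762, so none passed 0.05. From 3 h on every IL-4 sample lay above every control in this measure.

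**Figure D4:**
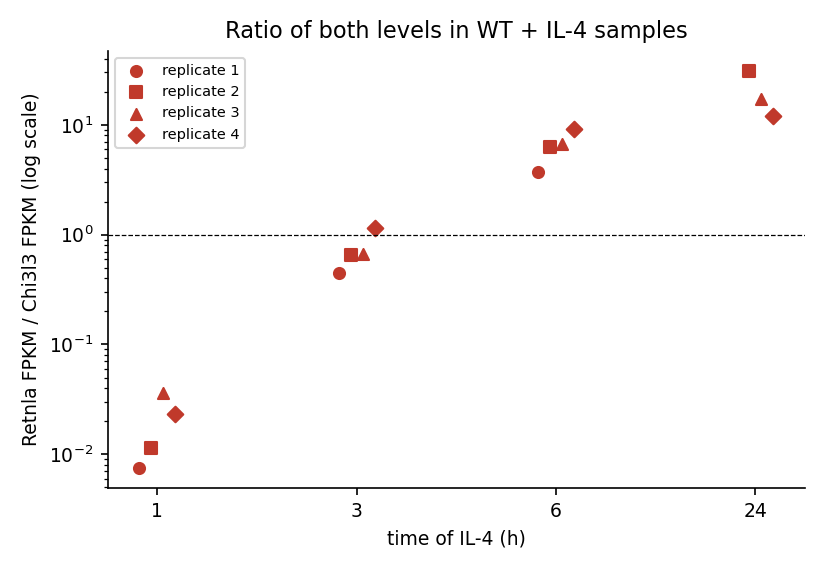
Ratio of Retnla FPKM to Chi3l3 FPKM, on a log axis, in each WT sample with IL-4 by hours of IL-4, with a symbol for each replicate number and a dashed line at a ratio of 1. The ratio was 0.450 to 1.15 at 3 h, 3.71 to 9.25 at 6 h and 12.0 to 31.1 at 24 h.

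In Stat6-/- cells neither member was called at any time. No tested locus was called there, 0% at each of the 4 times. In limma, 51, 131, 88 and 37 loci had an unadjusted p under 0.05 at 1, 3, 6 and 24 h. With no change, a share of 0.05 of the 11146 tested loci would fall under that limit, more than each count. Same-numbered control and IL-4 samples deviated together in Stat6-/- cells (correlations of at least 0.791), which this fit left out. The Stat6-/- test was conservative, and 0 calls do not measure an absent response. With single Stat6-/- samples left out, 2 loci were called at 1 h (without IL-4 replicate 1; 1 without control replicate 2), 2 at 3 h (without control replicate 2; 1 without control replicate 1) and 1 at 6 h (without control replicate 1). Retnla in Stat6-/- cells with IL-4 read 0.269 and 1.68 FPKM at 1 h, 0.364 and 0.632 at 3 h, 0 and 0 at 6 h, and 0.982 and 0 at 24 h. The controls read 0 and 0.157 FPKM at 1 h, 0.0716 and 0 at 3 h, 1.06 and 0 at 6 h, and 1.22 and 0 at 24 h. At 1 and 3 h both IL-4 samples were above both controls, and at 6 and 24 h they were not. The share of all tested loci with this order in Stat6-/- cells was not computed. With 2 samples in each group, the order alone does not show a response. The differences were 0.78, 0.53, -0.52 and -0.08, with an adjusted p of 1 each. Their 95% intervals ran from -0.04 to 1.60, -0.29 to 1.35, -1.34 to 0.30 and -0.90 to 0.74. A 2-fold difference thus lay inside the intervals at 1, 3 and 6 h.

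Chi3l3 in Stat6-/- cells with IL-4 ranged from 31.5 to 45.5 FPKM. The pairs read 43.3 and 38.6 FPKM at 1 h, 38.5 and 36.9 at 3 h, 37.3 and 35.03 at 6 h, and 45.5 and 31.5 at 24 h. The controls read 46.4 and 38.1, 42.1 and 34.1, 39.8 and 31.2, and 46.2 and 31.6 FPKM. The differences were -0.04, -0.01, 0.04 and -0.01 ± 0.33 (SE), with an adjusted p of 1 each. The 95% interval at 1 h ran from -0.70 to 0.62, and those at the other times were as wide.

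The difference between the genotypes was tested as an interaction, the WT response minus the Stat6-/- response. At 1 h it was -0.28 ± 0.50 for Retnla (adjusted p = 0.988) and 0.26 ± 0.40 for Chi3l3 (adjusted p = 0.979), with 1.25% of loci called. For Retnla it was 4.46 ± 0.50 at 3 h (adjusted p = 6.9e-09), 8.62 ± 0.50 at 6 h (adjusted p = 1.1e-16) and 12.07 ± 0.51 at 24 h (adjusted p = 1.2e-20), all called. For Chi3l3 it was 1.09 ± 0.40 at 3 h and not called (adjusted p = 0.0768). It was 1.54 ± 0.40 at 6 h (adjusted p = 0.0053) and 3.35 ± 0.41 at 24 h (adjusted p = 7.1e-08), both called. The share of loci called was 3.48% at 3 h, 4.41% at 6 h and 6.85% at 24 h. Fitted on the samples compared alone, the Chi3l3 interaction at 3 h passed with an adjusted p of 0.0148, as it did in a fit that blocked on replicate number (adjusted p = 0.00597, limma).

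The basal level of Chi3l3 was higher in Stat6-/- cells. Its mean over the control samples was 39.0 FPKM against 21.6 FPKM in WT, a ratio of 1.81. At 0 h the Stat6-/- samples read 41.1 and 39.8 FPKM and the WT samples 23.4, 19.4, 25.7 and 17.9 FPKM. The ratio of means at the successive times from 0 to 24 h was 1.87, 1.80, 1.85, 1.82 and 1.71. All 10 Stat6-/- controls lay above all 20 WT controls, which held for 10 of the tested loci, or 0.0897%. Averaged over the 5 control times, the difference was 0.84 ± 0.13 with an adjusted p of 5.7e-06, and 8.03% of loci passed that p in the same direction. It was under the 2-fold limit, which 0.287% of loci met in either direction. At 0 h alone it was 0.89 ± 0.28 with an adjusted p of 0.0844, and 0.35% of loci were called.

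The 5 control times of a genotype may come from the same cultures or mice. In Stat6-/- cells Chi3l3 was higher in number 1 than in number 2 in 9 of 9 groups. In the WT controls it was higher in numbers 1 and 3 than in numbers 2 and 4 in 4 of 5 groups. The controls of both genotypes thus did not vary independently over time. The limma p-value over the controls takes them as independent. When the controls of a replicate number were averaged first, the 2 Stat6-/- means were 5.16 and 5.46 in log2(FPKM + 1) and the 4 WT means were 4.22 to 4.70. The groups did not overlap, and the exact permutation test gave p = 0.133 (two-sided), the smallest p that 2 against 4 allows. For Retnla the difference over the controls was 0.13 ± 0.16 (adjusted p = 0.611), the replicate means overlapped, and the exact permutation p was 0.400.

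Markers of neutrophils, and the tested markers of eosinophils, mast cells and basophils, and dendritic cells, were higher in Stat6-/- controls, as Chi3l3 was. The same direction was seen in lists closer to Chi3l3. Of the 5 tested chitinase family genes, Chi3l3 included, 4 were higher at an adjusted p under 0.05 (limma) and 0 lower. Of the 26 tested IL-4 marker genes, 5 were higher at that limit and 0 lower. None of these was 2-fold. Of the 10 neutrophil markers listed, 9 were in the files and tested. All 9 were higher in Stat6-/- controls at an adjusted p under 0.05, none of them 2-fold, beside 8.03% of all tested loci. S100a8, a calcium-binding protein of neutrophils, was 172 FPKM on average in WT controls and 305 FPKM in Stat6-/- controls, a difference of 0.83. The summed level of the 9 markers was 318 to 638 FPKM in WT and 604 to 1101 FPKM in Stat6-/- controls. Eosinophil markers summed to 4.71 to 10.8 FPKM in WT and 10.2 to 14.4 FPKM in Stat6-/- controls, and all 3 tested were higher. Of the 6 mast cell and basophil markers, Mcpt4 and Cma1 were at 0 in every control, and the 2 tested were higher. The sums were 0.269 to 0.890 FPKM in WT and 0.930 to 2.10 FPKM in Stat6-/- controls. Dendritic cell markers summed to 0.47 to 4.31 FPKM in WT and 1.24 to 6.32 FPKM in Stat6-/- controls. The 1 tested, Ccr7, was higher, with a difference of 0.81. T and B cell markers summed to at most 0.727 FPKM in any control. The part of such cells in the Chi3l3 difference was not tested, and more cells of a type and more RNA per cell cannot be told apart in these samples. Under IL-4 for 24 h in WT, 3 of the 9 neutrophil markers were called lower and none higher, beside 8.5% of loci called in either direction. Cxcr2, a chemokine receptor, had a difference of 0.01, and Mpo (-0.23) and Elane (-0.49), which encode granule enzymes, did not pass the test.

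**Figure D5:**
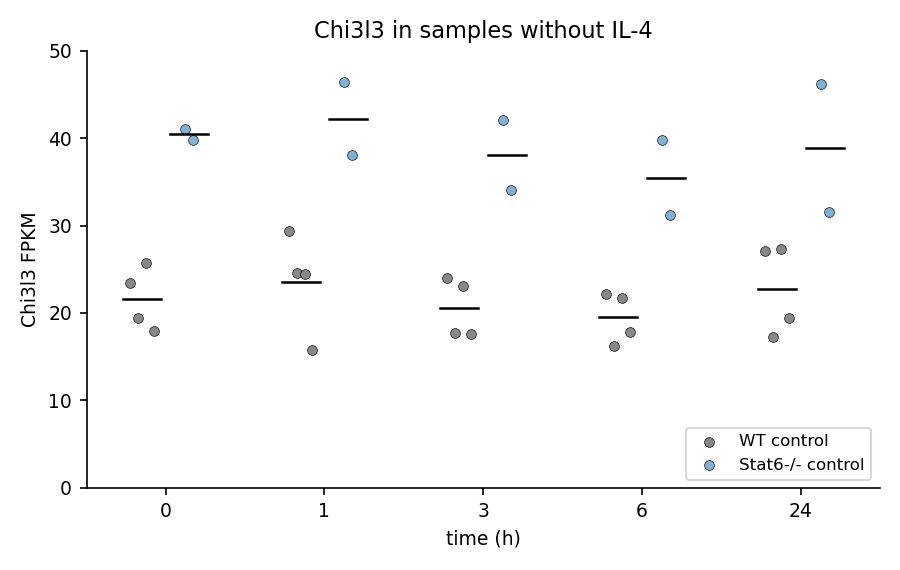
Chi3l3 FPKM in each sample without IL-4 by time in hours, for WT and Stat6-/- cells, with short lines at the group means. The Stat6-/- samples lay between 31.2 and 46.4 FPKM and the WT samples between 15.8 and 29.4 FPKM at every time.

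Time in culture without IL-4 did not move either member past the test. In WT, the difference between 24 and 0 h was 0.06 ± 0.29 for Retnla (adjusted p = 0.917) and 0.06 ± 0.23 for Chi3l3 (adjusted p = 0.893), beside 1.13% of loci called. In Stat6-/- cells it was 0.54 ± 0.40 for Retnla (adjusted p = 0.548) and -0.08 ± 0.33 for Chi3l3 (adjusted p = 0.933), beside 0.161% called. Those 18 loci became 5 without the 0 h replicate 2, and 71 and 30 without the 24 h replicates 1 and 2.

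The relatives of the members did not all follow them. Retnlg, a resistin-like gene of neutrophils 30056 bases from Retnla, fell in WT at 24 h of IL-4 from a mean of 3.98 to 1.18 FPKM, a difference of -1.17 with an adjusted p of 2.2e-04. Retn and Retnlb were below the filter, at up to 0.303 and 0.0879 FPKM. Chi3l4 rose with Chi3l3, from 0.163 ± 0.075 (SD, n = 4) to 3.12 ± 1.93 FPKM (SD, n = 3) at 24 h, a difference of 1.69, and was called at that time alone. At 6 h Chi3l4 read 0.782 ± 0.259 FPKM with IL-4 and 0.138 ± 0.075 without (SD, n = 4 each). That difference, 0.64 with an adjusted p of 0.0011 (limma), was under the 2-fold limit. In the WT samples with IL-4 the level of Chi3l4 was 0.274 to 1.69% of that of Chi3l3, in the presence of the shared sequence described above. The medians at 1, 3, 6 and 24 h were 0.53, 0.91, 1.26 and 1.16%. In the WT controls the level was 0.286 to 1.14%, with medians of 0.59 to 0.75% at the 5 times. This shift was not tested. Of the 5 tested members of the chitinase family, Chi3l3 included, 2 were called at 24 h, both higher, beside 8.5% of all tested loci, and Chi3l1, a chitinase-like gene, had a difference of -0.60.

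Neighbours on the chromosome were also examined. Of 8 loci that start within 500 kb of Retnla, 3 were tested, and Retnlg was the only one called at 24 h. Of 17 within 500 kb of Chi3l3, 11 were tested, with Chi3l4 called higher and I830077J02Rik called lower at a difference of -1.31. These 3 called of 14 stand beside 8.5% of all tested loci. None of the 14 neighbours was called at 1, 3 or 6 h, when 1.49, 3.88 and 5.54% of loci were.

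The pattern most like that of Retnla over the 18 group means, by Pearson correlation of log2(FPKM + 1), belonged to Pdgfa (r = 0.986), a growth factor gene, followed by Mcf2l (0.986), Arhgap6 (0.982), Hspd1 (0.982) and Il31ra (0.981). For Chi3l3 it belonged to Ear2 (r = 0.965), followed by Parl (0.952), Chi3l4 (0.950), Slc25a32 (0.946) and Deb1 (0.941). Ear2, a ribonuclease gene, rose from 1.24 FPKM in the 24 h controls to 41.9 FPKM with IL-4, and at 0 h stood at 0.864 FPKM in WT and 2.12 FPKM in Stat6-/- cells. Between the members r was 0.842. These correlations share samples and a common rise at 24 h, and are descriptions.

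Of the 7 genes of IL-4 signalling, all tested, none was called at 1 h. Il4ra, the receptor chain, was called higher at 3 h (1.59) and 6 h (1.14), Il13ra1 was called lower at 6 h (-1.34) and 24 h (-1.19), and the others were not called. Of the 4 C/EBP factors, Cebpb was called lower at 1 h (-1.11) and Cebpa higher at 6 h (1.03). Over all tested loci 1.49, 3.88, 5.54 and 8.5% were called at 1, 3, 6 and 24 h.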

How the data were processed

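RNA-seq libraries (poly-A, TruSeq, paired reads) of 53 BMDM samples were analysed from the FPKM tables the authors deposited, 1 per sample. Per the labels and methods, the authors aligned reads to mm10 with TopHat2 2.0.7 and computed FPKM with Cufflinks 2.0.2. Gene annotation is not given in the sources used here. Tables were joined by locus, values under 1e-06 were set to 0, and 740 loci that share a symbol were kept in the fit but not named. Groups came from the labels, which give no batch. WT with IL-4 for 24 h, replicate 1, was not analysed here. Counts were not given, so intervals do not come from counts. Relative depth came from ratios of low values (12701 loci). All sample pairs agreed within 2%.

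The 11146 loci that reached 1 FPKM in any sample were fitted in limma 3.58.1 (R 4.3.3) on log2(FPKM + 1), with 18 group means, an intensity trend and Benjamini-Hochberg adjustment over all loci in each contrast. Fold changes on this scale understate changes of low genes. Exact permutation tests were two-sided with the smaller tail doubled. The fit was tested on simulated data. Alternatives were other pseudocounts (0.1 and 5), no filter, quantile normalization, scaling without the 100 most abundant loci, no trend, only the samples compared, a replicate block, analysis of variance with Tukey adjustment for the members, and each sample left out. Named genes were the members, Stat6, family, marker, signalling and C/EBP lists, loci within 500 kb, the 5 nearest patterns and rank neighbours at 24 h. The members and lists were chosen with earlier results of these data known.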

Additional observations from a re-analysis of the deposited data

Results flagged for a closer look

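The WT control at 6 h, replicate 1, read 2.16 FPKM of Retnla while the other 3 samples of that group were listed at 0. The WT control at 0 h, replicate 3, read 0.127 FPKM with its other 3 samples listed at 0. Of 16 sets of 4 samples looked at, these 2 held a sample far from the rest, and chance gives about 1 in 20. That rate does not apply where the other 3 values are all 0, as in both sets. The 0 h value was close to 2 steps of 0.0633 FPKM, so it stood for a few fragments. The 6 h value stood at 40.2 steps. Without the 6 h sample the Retnla response at that time rose from 8.10 to 8.51 and remained called.

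The response to IL-4 differed between WT and Stat6-/- cells, by the test of the interaction in log2(FPKM + 1), for Retnla at 3 h (4.46), 6 h (8.62) and 24 h (12.07) and for Chi3l3 at 6 h (1.54) and 24 h (3.35).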

How the results depend on the processing

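Calls for Retnla in WT at 3, 6 and 24 h, for its interactions at those times and for Chi3l3 at 6 and 24 h held under every alternative run. With 5 FPKM added the Chi3l3 response at 3 h was 0.96, under the 2-fold limit, and leaving out each sample in turn gave 0.997 to 1.16. With 0.1 FPKM added the Retnla step from 3 to 6 h was 2.44 and not called. Fitting only the samples compared called the Chi3l3 interaction at 3 h (1.09, adjusted p = 0.0148). The cause was not tested. The Retnla difference at 0 h between the genotypes was 0.032 with 0.1 FPKM added and ranged from -0.043 to 0.040 with samples left out. The unequal response at 1 h was 1.69 with 0.1 FPKM added and -0.064 with 5 FPKM. With 0.1 FPKM added it was 7.15 at 3 h and 9.09 at 6 h, and the adjusted exact p at all 3 times was 0.0381.

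With single samples left out, the following also moved past a limit or changed sign. The Chi3l3 step from 1 to 3 h ranged from 0.75 to 1.04, and was called only without the WT 1 h control replicate 4. The Stat6-/- responses of Chi3l3 ranged from -0.18 to 0.10 at 1 h, -0.16 to 0.14 at 3 h, -0.14 to 0.21 at 6 h and -0.28 to 0.25 at 24 h, and that of Retnla at 24 h from -0.66 to 0.49. The Retnla interaction at 1 h ranged from -0.82 to 0.26. Differences between 24 and 0 h without IL-4 ranged from -0.0095 to 0.099 (Retnla, WT), -0.036 to 0.18 (Chi3l3, WT), -0.040 to 1.11 (Retnla, Stat6-/-) and -0.35 to 0.19 (Chi3l3, Stat6-/-). The basal Retnla difference over replicate means ranged from -0.069 to 0.33. The Chi3l3 share of its 24 h level ranged from 8.14 to 14.1% at 1 h, 13.6 to 23.1% at 3 h and 18.8 to 30.5% at 6 h.

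Same-numbered control and IL-4 samples deviated together in most pairs, with correlations over loci above 0.1 in 13 of 15 WT pairs (0.0265 to 0.561) and 8 of 8 Stat6-/- pairs (all at least 0.791). As 2 WT pairs fell short, Stat6-/- had only 2 numbers and the labels tie no number to a mouse, the block was kept as an alternative. A fit with the replicate block called the Chi3l3 interaction at 3 h (1.09, adjusted p = 0.00597), and no other call for the members changed. Under this block the loci called in Stat6-/- cells went from 0 to 1 at 1, 3 and 6 h, and those called between 24 and 0 h without IL-4 from 18 to 140 in Stat6-/- and from 126 to 215 in WT cells.

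The number of loci called depended on the pseudocount. With 5 FPKM added, the WT responses had 74, 233, 316 and 472 loci in place of 166, 433, 617 and 947, the interactions 69, 201, 269 and 386 in place of 139, 388, 491 and 763, and the steps 70, 17 and 338 in place of 180, 50 and 676. The basal comparisons then had 9 each in place of 39 and 32, and 24 against 0 h had 52 and 9 in place of 126 and 18. With 0.1 FPKM added there were 931 and 1522 in WT at 6 and 24 h, 1198 for the interaction at 24 h, 278 and 86 for the first 2 steps, 89 and 130 at baseline, 260 for 24 against 0 h in WT and 1 in Stat6-/- cells at 1 h. With only the samples compared there were 1 at baseline at 0 h, 215 and 0 for 24 against 0 h in WT and Stat6-/-, and 1 in Stat6-/- cells at 1 h.

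Single samples also moved these counts. For the interaction at 24 h, 763 loci became 464 without the Stat6-/- 24 h control replicate 1, 1357 without its replicate 2 and 1296 without the Stat6-/- 24 h IL-4 replicate 1. At baseline at 0 h, 39 became 6 without the Stat6-/- replicate 2 and 64, 17 and 25 without WT replicates 1, 3 and 4. Over all controls, 32 became 57 to 61 without replicate 1 of the Stat6-/- controls at 0, 1, 3 or 6 h.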
